A study of Mus musculus with 7 samples.

Results

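The miR-106a-363 cluster is a run of 6 microRNA hairpins on mouse chromosome X. The arms of miR-106a, miR-18b, miR-20b, miR-92a-2 and miR-363 that are not shared with the miR-17-92 cluster were taken by name from the count table, which gave 9 of its 1078 rows: mmu-miR-106a-5p, mmu-miR-106a-3p, mmu-miR-18b-5p, mmu-miR-18b-3p, mmu-miR-20b-5p, mmu-miR-20b-3p, mmu-miR-92a-2-5p, mmu-miR-363-5p and mmu-miR-363-3p. The prefix mmu stands for mouse and is left out from here on. The arms were followed in 7 small-RNA libraries made by Flag immunoprecipitation from mouse embryonic stem cells on an Argonaute-null background. In 6 of the libraries the cells carried Flag-tagged Ago2, as WT (wild type) or as the mutants K566A, Q548A, R792A_C793A, GKT_GKGT and PGKTP_AAAAA. The seventh library, labelled empty, is the control. Each group is 1 library. The sources used here do not say how the tagged proteins were brought into the cells or whether a line is 1 clone. The series title puts the question whether Argonaute itself drives the choice between the strands of a small RNA.

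An Argonaute protein receives a short RNA duplex, keeps one strand as the guide and releases the other, the passenger. The guide finds target messages mainly through its seed, the bases from position 2 to position 8, while its 5′ end sits in a pocket of the MID domain. K566 and Q548 are residues of that domain, R792 and C793 belong to the PIWI domain, and the remaining mutants alter a MID loop close to the first base of the guide. The miR-106a-363 cluster is a paralog of miR-17-92, a cluster known for promoting cell proliferation.

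The mature sequences are shown because the seed sets the family and the first base is the one next to the altered loop. Of the 9 members 8 were matched by name to the RefSeq table (build GRCm38.p6, minus strand). Capitals mark the seed.
miR-106a-5p: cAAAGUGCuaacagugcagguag
miR-20b-5p: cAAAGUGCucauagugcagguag
miR-18b-5p: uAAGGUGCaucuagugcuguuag
miR-363-3p: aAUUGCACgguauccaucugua
miR-106a-3p: aCUGCAGUgccagcacuucuuac
miR-20b-3p: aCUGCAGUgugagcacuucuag
miR-18b-3p: uACUGCCCuaaaugccccuucu
miR-92a-2-5p: aGGUGGGGauugguggcauuac
The 5p arms of miR-106a and miR-20b share the seed of the miR-17 family and begin with C. Their 3p arms share another seed and begin with A. miR-363-3p, which carries the seed of the miR-25/92 family, and miR-92a-2-5p also begin with A, while both arms of miR-18b begin with U. The precursor of miR-363 is shown whole, with its 3p arm in capitals, because its arm ratio in GKT_GKGT stands apart in the results.
miR-363 hairpin: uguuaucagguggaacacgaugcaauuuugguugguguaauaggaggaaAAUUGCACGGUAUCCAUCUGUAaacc

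The deposited positions (mm9) place the member arms on chromosome X between 50094874 and 50095740, a span of 867 nt. miR-106a-5p lies at 50095718 to 50095740, miR-106a-3p at 50095682 to 50095704, miR-18b-5p at 50095558 to 50095580 and miR-18b-3p at 50095519 to 50095540. miR-20b-5p lies at 50095336 to 50095358, miR-20b-3p at 50095299 to 50095320, miR-92a-2-5p at 50095069 to 50095090, miR-363-5p at 50094917 to 50094938 and miR-363-3p at 50094874 to 50094895. In the GENCODE annotation, read by gene name, the Mir106a hairpin overlaps the non-coding gene Kis2 and the other 5 hairpins of the cluster overlap no other gene. The 3p arms of the sixth hairpin, miR-19b-2, and of miR-92a-2 share their mature sequence with miR-17-92, so those counts cannot be assigned to this cluster. The 5p arm of miR-19b-2 is named as an arm of its own and was not among the members chosen.

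Depth was 14914048 to 94842507 counts in the 6 Ago2 libraries and 33461 counts in the empty control, 446 times fewer than in the smallest Ago2 library. Embryonic stem cell microRNAs of the miR-290 and miR-302 clusters, 12 of 12 listed, were detected in each library and made up 59.4% of counts in K566A and 72.5% to 79.6% in the other Ago2 libraries. Of 12 markers of other cell types, 9 or 10 had counts in each Ago2 library. The blood markers miR-451-5p and miR-223-3p were at 0 in all 7 libraries, while the other listed blood marker, miR-150-5p, had counts in all 7. The summed level of these markers was 846 to 1932 counts per 1000000 (CPM) in 5 of the Ago2 libraries and 5438 CPM in K566A, of which the fibroblast-rich miR-143-3p made up 3968 CPM. The stem cell microRNA miR-292-5p held 21.7% of counts in K566A, against 57.3% to 70.5% in the other Ago2 libraries. Since each group is 1 library, differences could not be set against a spread between replicates, and p-values are left out. Intervals are 95% intervals and cover counting error only.

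The 9 arms together were highest in K566A and, in CPM, near the wild-type level in both loop mutants. Summed, they stood at 2964 CPM in wild type, 4539 in Q548A, 6128 in R792A_C793A, 17939 in K566A, 3080 in PGKTP_AAAAA and 2949 in GKT_GKGT. K566A lay far above the other Ago2 libraries, and R792A_C793A was next. The log2 ratio of the sum to wild type was 0.61 in Q548A, 1.05 in R792A_C793A, 2.60 in K566A, 0.06 in PGKTP_AAAAA and -0.0076 (interval -0.017 to 0.0015) in GKT_GKGT. With median-of-ratios scaling, which sets library size by the typical microRNA and not by the total, the same ratios were 0.52, 0.69, 1.76, 0.68 and 0.17. K566A is also the Ago2 library with the lowest depth, the lowest miR-292-5p share and the highest level of other cell types' markers, and the part of these in its cluster level was not tested. From pulled-down RNA, a change in what Ago2 binds and a change in what the cells hold cannot be told apart.

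The empty control held 148 counts of these arms, 0.442% of its total (4423 CPM, interval 3739 to 5196), against 281126 counts in wild type. This interval held the Q548A level and lay above wild type and both loop mutants and below R792A_C793A and K566A. For an arm with a count of 0 the upper limit used is 3 counts, equal to 89.7 CPM in the empty control.

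Within the cluster the counts were spread very unevenly. In wild type miR-363-3p made up 49.5% of the 9 arms' counts, miR-20b-5p 27.1%, miR-18b-5p 9.79% and miR-106a-5p 7.68%. miR-363-5p held 2.86%, miR-18b-3p 2.82% and miR-92a-2-5p 0.240%, with miR-20b-3p and miR-106a-3p below that. The order of the top 4 was the same in Q548A, R792A_C793A, K566A and PGKTP_AAAAA. In GKT_GKGT it was not: miR-20b-5p led with 32.1%, miR-363-3p came second with 24.2%, and miR-363-5p, at 12.5%, stood above miR-106a-5p at 8.51%.

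**Figure D1:**
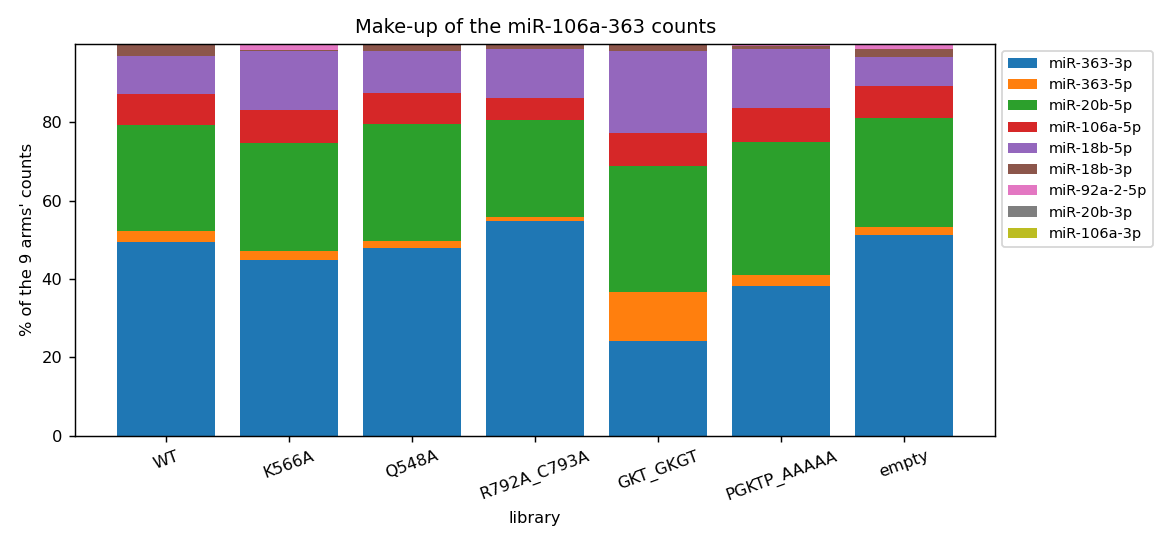
Share of each arm in the summed counts of the 9 arms, in percent, as stacked bars for the 7 libraries. In the GKT_GKGT bar miR-363-3p takes 24.2% and miR-363-5p 12.5%, against 49.5% and 2.86% in wild type, and the empty bar rests on 148 counts.

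miR-20b-5p and miR-106a-5p are guide arms of the miR-17 family, which is known to repress the cell-cycle inhibitor Cdkn1a. miR-20b-5p stood at 804 CPM in wild type, 1348 in Q548A, 1513 in R792A_C793A, 4965 in K566A, 1047 in PGKTP_AAAAA, 948 in GKT_GKGT and 1225 in the empty control. miR-106a-5p stood at 228 CPM in wild type, 364 in Q548A, 356 in R792A_C793A, 1487 in K566A, 260 in PGKTP_AAAAA, 251 in GKT_GKGT and 359 in the empty control. Among the Ago2 libraries both were lowest in wild type and highest in K566A. In K566A the ratio to wild type was 6.18-fold for miR-20b-5p and 6.53-fold for miR-106a-5p, and both intervals lay wholly above 2-fold. With the total without miR-292-5p as library size, the log2 ratio of each arm in K566A shifted by -1.11, which left 1.52 for miR-20b-5p and 1.60 for miR-106a-5p, still past 2-fold. In Q548A and R792A_C793A the ratios were 1.57- to 1.88-fold, and in the loop mutants 1.10- to 1.30-fold, with no interval wholly past 2-fold. The place of PGKTP_AAAAA among these depended on the scaling. With median-of-ratios scaling its log2 ratios were 1.01 for miR-20b-5p and 0.82 for miR-106a-5p, above Q548A (0.65 and 0.58) and R792A_C793A (0.55 and 0.28). With the total without miR-292-5p they were 0.64 and 0.45, below Q548A (0.81 and 0.74).

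miR-18b-5p, whose seed differs from the miR-17 seed, stood at 290.3 CPM in wild type, 484 in Q548A, 767 in R792A_C793A, 2706 in K566A, 469 in PGKTP_AAAAA, 619.7 in GKT_GKGT and 329 in the empty control. Wild type was again the lowest of the Ago2 libraries. Ratios to wild type were 9.32-fold in K566A, 2.64-fold in R792A_C793A and 2.13-fold in GKT_GKGT, each with an interval wholly above 2-fold. Its partner miR-18b-3p had its highest Ago2 value in wild type, with 83.5 CPM there, 76.7 in Q548A, 61.1 in R792A_C793A, 57.6 in K566A, 18.3 in PGKTP_AAAAA and 43.8 in GKT_GKGT, and 3 counts (89.7 CPM) in the empty control. In PGKTP_AAAAA it fell by 2.19 on the log2 scale (interval -2.33 to -2.05). For this hairpin the 5p arm was above and the 3p arm below its wild-type level in each of the 5 mutants, under each of the 3 other scalings tried as well.

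miR-363-3p, the most abundant member, stood at 1466 CPM in wild type, 2172 in Q548A, 3362 in R792A_C793A, 8033 in K566A, 1177 in PGKTP_AAAAA, 712 in GKT_GKGT and 2271 in the empty control. In CPM both loop mutants lay below wild type and the other 3 mutants above it, though for PGKTP_AAAAA this direction depended on the scaling. Its ratio to wild type was 5.48-fold in K566A, 2.29-fold in R792A_C793A and 0.486-fold in GKT_GKGT (log2 -1.04, interval -1.06 to -1.02), each interval wholly past 2-fold. With median-of-ratios scaling the log2 ratio was 0.84 in R792A_C793A and -0.86 in GKT_GKGT, so neither was past 2-fold. In PGKTP_AAAAA its log2 ratio of -0.32 turned to 0.31 with that scaling.

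miR-363-5p, the minor arm of that hairpin, stood at 84.8 CPM in wild type, 88.9 in Q548A, 58.6 in R792A_C793A, 419 in K566A, 88.2 in PGKTP_AAAAA and 368 in GKT_GKGT, and had 3 counts in the empty control. K566A and GKT_GKGT stood apart from the other 4 Ago2 libraries. Ratios to wild type were 4.95-fold in K566A and 4.34-fold in GKT_GKGT (log2 2.12, interval 2.08 to 2.15). The order of these 2 libraries depended on the scaling, with log2 ratios of 1.47 in K566A and 2.30 in GKT_GKGT under median-of-ratios scaling. In K566A both arms of miR-363 were higher than in wild type, and in GKT_GKGT the 5p arm was higher and the 3p arm lower.

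miR-92a-2-5p, the minor arm of miR-92a-2, had the largest ratio of the cluster. It stood at 7.12 CPM in wild type, 5.09 in Q548A, 9.36 in R792A_C793A, 268 in K566A, 19.5 in PGKTP_AAAAA and 6.40 in GKT_GKGT, with 2 counts in the empty control. K566A was far above the others and PGKTP_AAAAA was second among the Ago2 libraries. K566A had 3994 raw counts of it and wild type 675, and the wild-type library is the deeper one. The ratio to wild type was 37.6-fold in K566A (log2 5.23, interval 5.12 to 5.35) and 2.74-fold in PGKTP_AAAAA (log2 1.45, interval 1.28 to 1.62). This arm passed the level filter, set at 10 CPM on average in the 6 Ago2 libraries, through K566A alone, since its mean without K566A was 9.50 CPM.

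miR-20b-3p and miR-106a-3p, the minor arms of the miR-17 family hairpins, had few counts and did not pass the filter. miR-20b-3p had 73 counts in wild type, 88 in Q548A, 54 in R792A_C793A, 39 in K566A, 4 in PGKTP_AAAAA, 12 in GKT_GKGT and 0 in the empty control. miR-106a-3p had 26 counts in wild type, 25 in Q548A, 3 in R792A_C793A, 9 in K566A, 1 in PGKTP_AAAAA, 7 in GKT_GKGT and 0 in the empty control. Relative to depth both had their highest value in K566A, at 2.61 CPM for miR-20b-3p and 0.603 CPM for miR-106a-3p, the latter from 9 counts. The interval of miR-20b-3p in K566A lay past 2-fold (3.40-fold, log2 interval 1.16 to 2.34), but under the 3 other scalings the log2 ratio was 0.93, 0.79 and 0.66 and no longer past 2-fold. Every other interval of these 2 arms against wild type reached inside 2-fold.

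**Figure D2:**
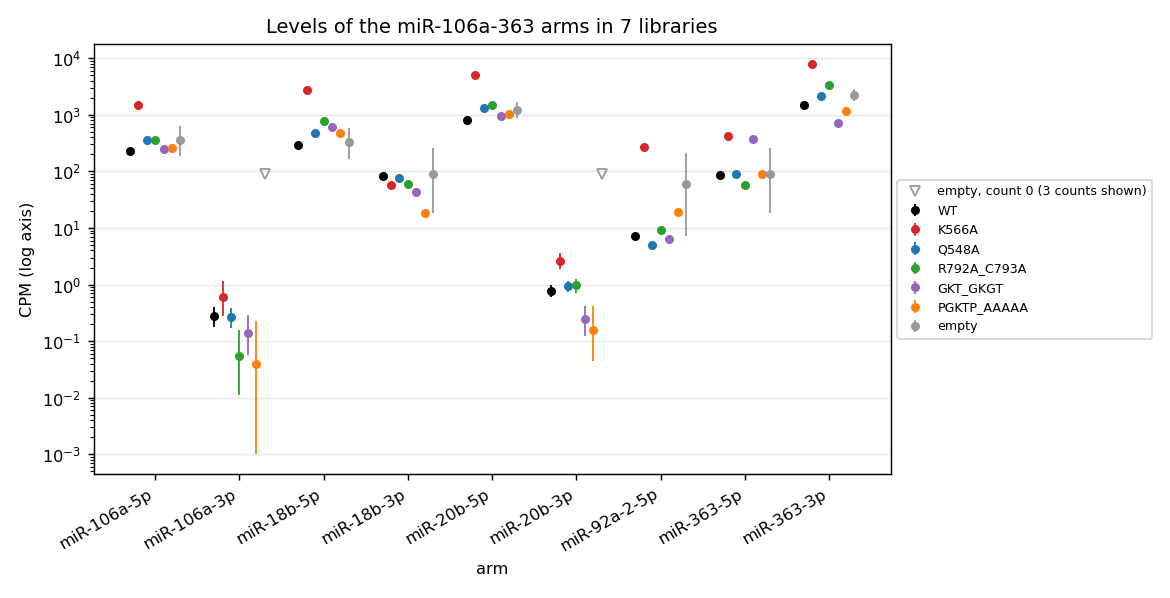
Level of each arm in CPM (log axis) in the 7 libraries, with exact Poisson 95% intervals as bars, and open triangles for a count of 0 in the empty control, drawn at 3 counts. Among the Ago2 libraries K566A is highest in CPM for 8 of the 9 arms, though for miR-363-5p GKT_GKGT is above it under the 3 other scalings, and miR-18b-3p is highest in wild type.

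An arm was called when the whole interval of its ratio lay above 2-fold or below 0.5-fold, and 7 of the 9 members were tested. In K566A 6 of the 7 were called higher and 0 lower, against 47.5% higher and 19.6% lower over all 337 tested microRNAs. The exception was miR-18b-3p, whose log2 ratio of -0.54 became -1.38, a call of lower, with median-of-ratios scaling. The median log2 ratio in K566A was 2.63 over the tested members and 0.91 over all tested microRNAs. These values include miR-92a-2-5p, which was tested only because it was high in K566A. With the filter set on the other 5 Ago2 libraries, an alternative chosen after seeing the data, 5 of 6 members were called higher and 0 lower, against 43.8% and 21.8% of 317 microRNAs, with medians of 2.54 and 0.73. In Q548A 0 of the 7 were called in either direction, where 1.78% of all were called higher and 4.45% lower, and the medians were 0.57 for the members and 0.07 for all. In R792A_C793A 2 of the 7 were called higher, miR-18b-5p and miR-363-3p, and 0 lower, where 15.7% and 6.82% of all were called, with medians of 0.65 and 0.43.

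The loop mutants gave calls in both directions. In GKT_GKGT 2 of the 7 were called higher, miR-18b-5p and miR-363-5p, and 1 lower, miR-363-3p, against 11.0% and 11.9% of all tested microRNAs. The medians there were 0.14 for the members and -0.29 for all. In PGKTP_AAAAA 1 of the 7 was called higher, miR-92a-2-5p, and 1 lower, miR-18b-3p, against 7.12% and 33.5% of all, with medians of 0.19 and -0.55. With median-of-ratios scaling miR-18b-5p was called higher there too, its log2 ratio going from 0.69 to 1.32. The 5 comparisons use the same wild-type library and share its error.

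**Figure D3:**
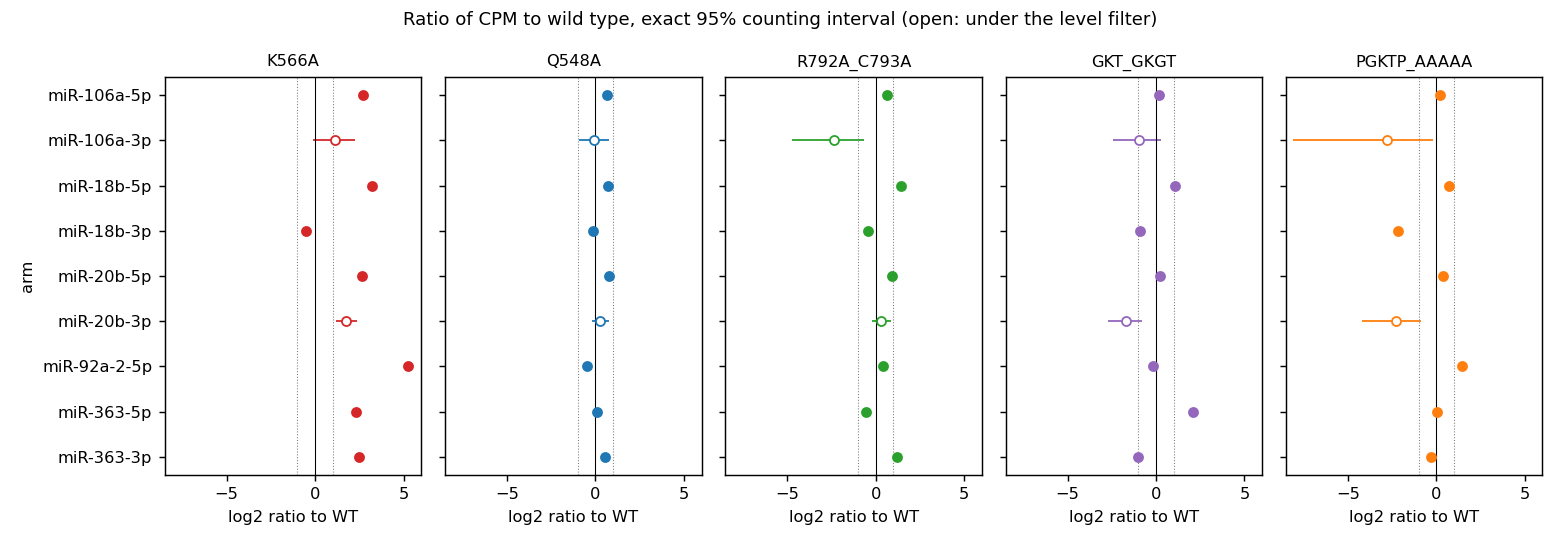
Log2 ratio of each arm's CPM to wild type in the 5 mutants, with exact 95% counting intervals, dotted lines at 2-fold and open points for the 2 arms under the level filter. miR-92a-2-5p in K566A lies farthest to the right, at 5.23, and in GKT_GKGT the 2 arms of miR-363 lie on opposite sides, at 2.12 and -1.04.

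Arm choice was compared within the 4 hairpins that have both arms among the members, where library size cancels. In the miR-363 hairpin the 3p arm held 94.5% of counts in wild type, 96.1% in Q548A, 98.3% in R792A_C793A, 95.04% in K566A and 93.0% in PGKTP_AAAAA, but 66.0% in GKT_GKGT (Wilson interval 65.6 to 66.4). GKT_GKGT thus stood below the other 5, whose shares ran from 93.0% to 98.3%. The log2 ratio of 3p to 5p differed from wild type by -3.16 in GKT_GKGT (interval -3.20 to -3.12), the 16th lowest of 402 hairpins, and by 1.73 in R792A_C793A (interval 1.67 to 1.79). In K566A, where both arms had several times their wild-type CPM, the difference was 0.15, and in PGKTP_AAAAA, the other loop mutant, -0.38.

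miR-18b, whose arms both begin with U, had its highest 3p share in wild type. The 3p arm held 22.3% in wild type, 13.7% in Q548A, 7.37% in R792A_C793A, 2.08% in K566A, 3.76% in PGKTP_AAAAA and 6.60% in GKT_GKGT. Against wild type the log2 ratio of 3p to 5p differed by -0.86 in Q548A, -1.85 in R792A_C793A, -3.76 in K566A, -2.88 in PGKTP_AAAAA and -2.03 in GKT_GKGT. Its counterpart miR-18a in miR-17-92 also had its highest 3p share in wild type, 51.1%, against 9.60% in K566A and 20.9% to 31.2% in the other mutants. The 5p arm of miR-18a begins with U, but its 3p arm begins with A. In the empty control 3 of 14 miR-18b counts were 3p, a share of 21.4% with a Wilson interval of 7.57 to 47.6.

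miR-20b and miR-106a were almost wholly 5p in each library. The 3p arm of miR-20b held 0.0957% in wild type, 0.0689% in Q548A, 0.0636% in R792A_C793A, 0.0526% in K566A, 0.0153% in PGKTP_AAAAA and 0.0255% in GKT_GKGT. That of miR-106a held 0.120% in wild type and 0.0150% to 0.0724% in the mutants. Both shares were highest in wild type, although the Wilson interval of wild type overlapped those of Q548A and R792A_C793A for miR-20b, and those of Q548A, PGKTP_AAAAA and GKT_GKGT for miR-106a. The log2 ratio of 3p to 5p differed by more than 2-fold over the whole interval for miR-20b in GKT_GKGT (-1.86) and PGKTP_AAAAA (-2.48), and for miR-106a in R792A_C793A (-2.81, interval -5.37 to -1.30, from 3 counts of the 3p arm). These log2 values carry a pseudocount of 0.5, and with 5 in its place they were -1.50, -1.57 and -1.84. For miR-92a-2, whose 3p arm is shared with miR-92a-1 and therefore uncertain, the 5p arm came to 5.05% of both arms in K566A, against 0.424% to 1.24% in the other Ago2 libraries.

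Over these 4 hairpins, the 3p arm was called down in 1 in K566A (miR-18b), 0 in Q548A, 2 in R792A_C793A (miR-18b and miR-106a), 3 in GKT_GKGT (miR-18b, miR-20b and miR-363) and 2 in PGKTP_AAAAA (miR-18b and miR-20b). Over all 402 hairpins with at least 100 counts, 18.7% were called down in K566A, 6.22% in Q548A, 11.4% in R792A_C793A, 10.7% in PGKTP_AAAAA and 11.2% in GKT_GKGT. The 3p arm was called up in 1 case, miR-363 in R792A_C793A, where 8.71% of all hairpins were called up, and in 0 in K566A (19.2% of all), Q548A (2.99%), GKT_GKGT (18.2%) and PGKTP_AAAAA (13.9%). In GKT_GKGT the median log2 difference over all hairpins was 0.34, while all 4 of these hairpins were below 0. For miR-106a the interval there held 0 (-2.55 to 0.14). All 4 were below 0 in PGKTP_AAAAA too, where the median over all hairpins was 0.06. The miR-17-92 hairpins miR-17, miR-18a and miR-20a were below 0 as well, at -1.86, -1.21 and -0.93 in GKT_GKGT. In PGKTP_AAAAA they were at -2.45, -1.98 and -3.04, the last from 1 count of the 3p arm. miR-92a-1, whose 3p arm is shared by both clusters, went the other way, at 0.31 in GKT_GKGT and 1.37 in PGKTP_AAAAA.

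**Figure D4:**
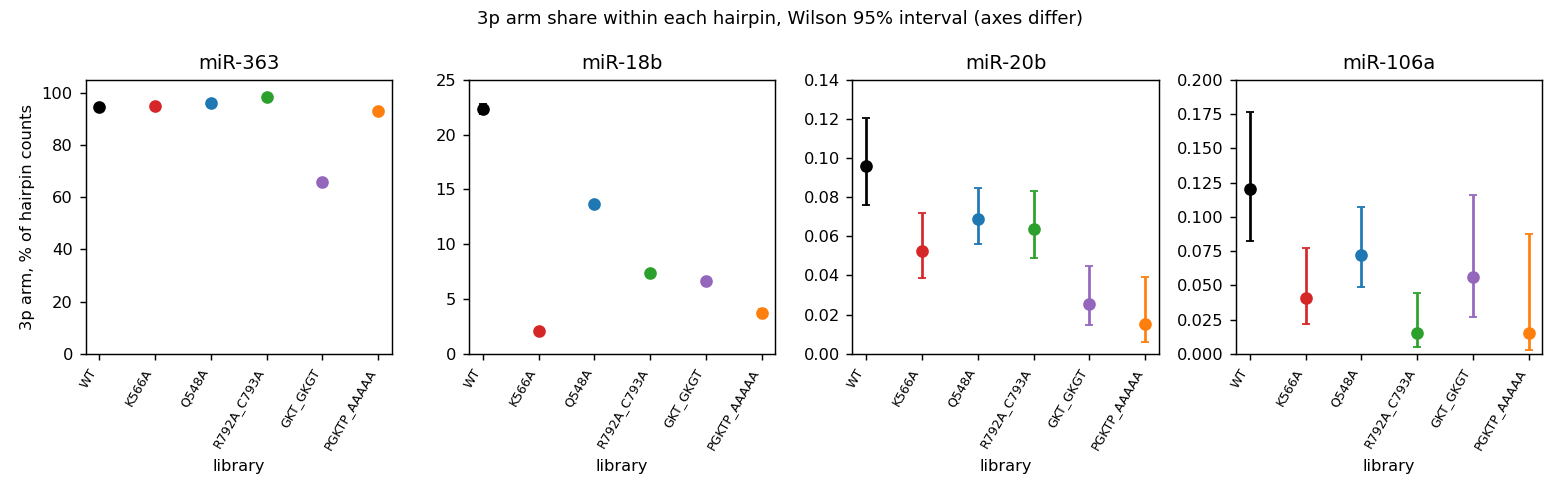
Share of the 3p arm in each hairpin's counts, in percent, for the 6 Ago2 libraries, with Wilson 95% intervals; the 4 vertical axes differ in range and each starts at 0. miR-363 stands at 66.0% in GKT_GKGT and above 90% in the other 5, and miR-18b goes from 22.3% in wild type to 2.08% in K566A.

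Each member was set against its counterpart in miR-17-92, where library size again cancels. The counterparts of the C-first arms are shown because 1 of them differs in its first base.
miR-17-5p: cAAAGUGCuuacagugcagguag
miR-20a-5p: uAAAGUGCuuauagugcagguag
miR-106a-5p differs from miR-17-5p at 1 of 23 positions (U10A, with the counterpart's base first and positions counted from 1 at the 5′ end), and miR-20b-5p from miR-20a-5p at 2 (U1C and U10C). miR-18b-5p differs from miR-18a-5p at 2 as well (A18U and A20U). The sources used here do not say how reads with mismatches or several matches were counted, so the split of counts between such near-identical arms is uncertain.

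miR-106a-5p had 0.441 times the counts of miR-17-5p in wild type, 0.569 in Q548A, 0.470 in R792A_C793A, 1.07 in K566A, 0.495 in PGKTP_AAAAA and 0.444 in GKT_GKGT. K566A was the library apart, with a log2 difference of 1.28 from wild type (interval 1.24 to 1.31). miR-20b-5p, which begins with C, had 0.793 times the counts of miR-20a-5p, which begins with U, in wild type, 1.099 in Q548A, 0.884 in R792A_C793A, 0.815 in K566A, 0.894 in PGKTP_AAAAA and 0.630 in GKT_GKGT. The log2 difference was -0.33 in GKT_GKGT (interval -0.35 to -0.31), the lowest, and 0.47 in Q548A, the highest, both inside 2-fold. miR-18b-5p had 3.73 times the counts of miR-18a-5p in wild type, 4.01 to 4.63 times in 4 mutants and 6.54 times in K566A. For the 3p arms of that pair the ratio was 1.03 in wild type, 2.08 in Q548A, and below 1 in PGKTP_AAAAA (0.660) and GKT_GKGT (0.722). These 3p arms differ at 16 of 22 positions, the first base among them (A1U).

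miR-363-3p has the seed of miR-92a-3p but another first base (U1A), as its sequence beside that of the counterpart shows.
miR-363-3p: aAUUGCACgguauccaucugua
miR-92a-3p: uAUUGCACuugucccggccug
The ratio of miR-363-3p to miR-92a-3p was 1.19 in wild type, 1.82 in Q548A, 1.71 in R792A_C793A and 1.60 in K566A, and below 1 in both loop mutants, at 0.758 in PGKTP_AAAAA and 0.854 in GKT_GKGT. The log2 difference from wild type was -0.65 in PGKTP_AAAAA (interval -0.67 to -0.62) and -0.47 in GKT_GKGT (interval -0.50 to -0.45), both inside 2-fold. Other members of the seed family had other patterns in CPM. miR-25-3p, which begins with C, stood at 2469 in wild type, 19996 in K566A, 5032 in PGKTP_AAAAA and 1805 in GKT_GKGT. miR-92b-3p, which begins with U, stood at 3767 in wild type, 1516 in K566A, 8159 in PGKTP_AAAAA and 3775 in GKT_GKGT, so it was lowest in the Ago2 library where miR-363-3p and miR-25-3p were highest.

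The minor arms of the miR-92a copies, which differ at 5 of 22 positions, had ratios that varied widely between libraries. miR-92a-2-5p had 0.0884 times the counts of miR-92a-1-5p in wild type, 0.0492 in Q548A, 0.0522 in R792A_C793A, 0.514 in K566A, 0.498 in PGKTP_AAAAA and 0.146 in GKT_GKGT. The log2 difference from wild type was 2.54 in K566A (interval 2.41 to 2.67) and 2.49 in PGKTP_AAAAA (interval 2.30 to 2.69). These 2 libraries came to similar ratios from different levels, since miR-92a-1-5p stood at 80.5 CPM in wild type, 521 in K566A and 39.2 in PGKTP_AAAAA. miR-363-5p, set against the same arm, had 1.05 times its counts in wild type, 0.860 in Q548A, 0.327 in R792A_C793A and 0.805 in K566A. The ratio was 2.25 in PGKTP_AAAAA and 8.36 in GKT_GKGT. The level of miR-92a-1-5p enters these ratios too, as it stood at 179 CPM in R792A_C793A and 44.0 in GKT_GKGT. In PGKTP_AAAAA miR-363-5p itself was near its wild-type level (log2 ratio 0.06).

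**Figure D5:**
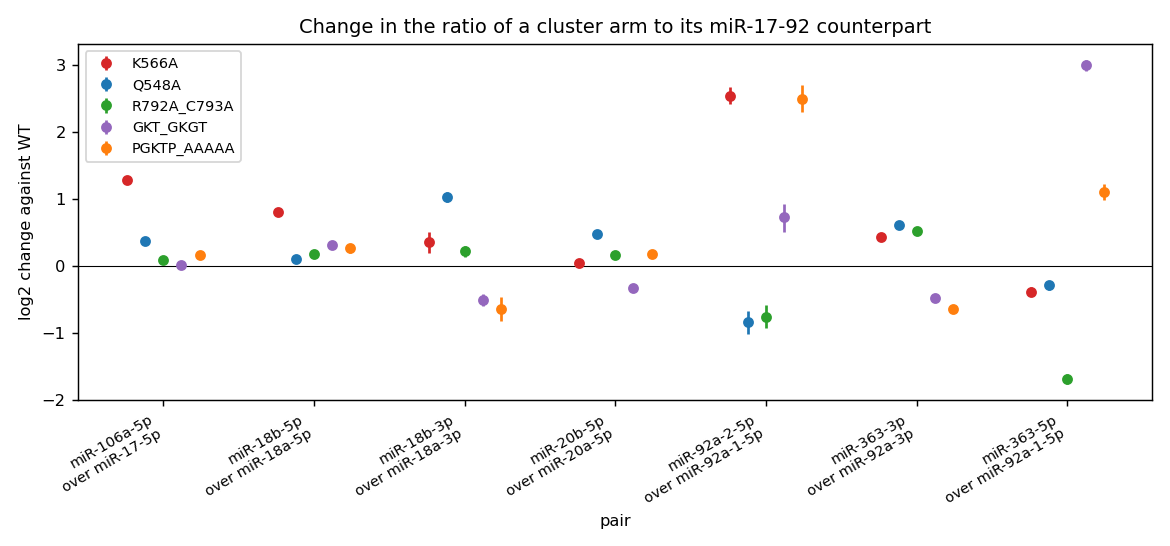
Log2 difference from wild type in the ratio of a cluster arm to its counterpart in miR-17-92, for the 5 mutants, with 95% counting intervals. The pairs of the rare 3p arms of miR-106a and miR-20b are left out, and miR-92a-3p, the counterpart of miR-363-3p, is shared by both clusters. miR-92a-2-5p stands at 2.54 in K566A and 2.49 in PGKTP_AAAAA and miR-363-5p at 2.99 in GKT_GKGT, while the 5p arms of miR-106a, miR-18b and miR-20b lie between -0.33 and 1.28.

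The related clusters gave the following counts by the same rule. Of 10 miR-17-92 arms 7 were tested, and 5 were called higher and 0 lower in K566A (median log2 ratio 2.41), 0 and 1 in GKT_GKGT (0.13) and 0 and 2 in PGKTP_AAAAA (0.03). In R792A_C793A 2 of them were called higher and 0 lower (0.76), and in Q548A 0 and 1 (0.31). All 8 arms of miR-106b-25 and miR-92b were tested, and 3 were called higher and 1 lower in K566A (median 0.92), 1 and 2 in GKT_GKGT (-0.21) and 2 and 1 in PGKTP_AAAAA (-0.34). In R792A_C793A 0 of these were called higher and 1 lower (0.11), and the same counts held in Q548A (-0.07). The shares over all tested microRNAs are those given above for each mutant.

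The loop mutants were also set against each other without wild type. GKT_GKGT was called higher than PGKTP_AAAAA in 2 of the 7 tested members, miR-363-5p (log2 ratio 2.06) and miR-18b-3p (1.26), where 25.5% of all were higher, and lower in 1, miR-92a-2-5p (-1.61), where 5.93% of all were lower. With median-of-ratios scaling miR-18b-3p came to 0.81 and was not called, and miR-363-3p went from -0.72 to -1.17 and was called lower. The log2 ratio of 3p to 5p of miR-363 differed by -2.78 between them, the 1 hairpin of the 4 called down (8.46% of all), and 0 were called up (13.7% of all).

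K566A against Q548A, a comparison of the MID pocket mutants, gave 6 of the 7 higher and 0 lower, with 47.2% and 19.6% of all. With the filter set without K566A, which leaves out miR-92a-2-5p, 5 of 6 were higher and 0 lower, with 43.2% and 21.5% of all. miR-92a-2-5p differed by 5.72 and miR-18b-5p by 2.48 on the log2 scale. With TMM scaling 4 of the 7 stayed higher, without miR-20b-5p (0.93) and miR-363-3p (0.94). With the total without miR-292-5p as library size, 3 stayed past 2-fold, at 4.54 for miR-92a-2-5p, 1.31 for miR-18b-5p and 1.07 for miR-363-5p, and miR-18b-3p was called lower at -1.59. Of the hairpins miR-18b was called down (-2.90, with 16.7% of all) and 0 were called up (20.4% of all).

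The members did not share 1 profile over the 6 Ago2 libraries. As a measure of likeness, log2(CPM + 0.5) was centred per microRNA and the root mean square difference was taken over the 6 libraries, so that 0 is an identical shape. The nearest of the tested microRNAs to miR-106a-5p were miR-19a-3p (0.090), miR-20b-5p (0.11) and miR-19b-3p (0.15), and those to miR-20b-5p were miR-19a-3p (0.10), miR-106a-5p (0.11) and miR-19b-3p (0.14). miR-18b-5p lay nearest to miR-20a-5p (0.22), miR-18a-5p (0.26) and miR-335-3p (0.31). For these guide arms most of the nearest profiles were thus arms of this cluster or of miR-17-92. miR-363-3p lay nearest to miR-294-3p (0.19), miR-106b-5p (0.24) and miR-467e-5p (0.27).

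Like miR-363-3p, the tested minor arms had their nearest profiles outside both clusters. Those of miR-18b-3p were miR-674-5p (0.17), miR-221-3p (0.20) and miR-1839-5p (0.29). miR-92a-2-5p had more distant ones, miR-455-5p (0.41), miR-145-3p (0.54) and miR-365-2-5p (0.65). For miR-363-5p they were miR-30c-2-3p (0.49), miR-25-5p (0.57) and miR-26b-3p (0.64), and its own partner miR-363-3p was 235th (1.48).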

How the data were processed

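Small RNAs of 7 Flag-Ago2 or control pull-downs, 1 library per group, were analysed from 1 table of raw counts per mature miRNA locus, as the authors deposited it. The submitters' processing notes name CASAVA 1.8.2, TopHat2 2.0.9 and mm9. The sources used here do not name the counting program or say how multiply matching reads were handled. Of 62 names with several loci, 55 had equal counts at each (within 1% or 3 counts), so each name was counted once, at its highest locus, and 9 names with the same counts as another were merged, leaving 838 miRNAs with counts. CPM used their totals, 33461 to 94842507 counts, as library sizes. Ratios carry exact conditional 95% intervals. Arm and counterpart ratios carry exact intervals, or Woolf intervals where all 4 counts reached 500, and a pseudocount of 0.5 in the log2 value. A hairpin was a 5p and a 3p locus within 150 nt. The interval code was tested on simulated data. Alternative scalings came from edgeR 4.0.16 (TMM) and DESeq2 1.42.0 (median of ratios) in R 4.3.3, and the rest from Python 3.11.15 with scipy 1.17.1. With 1 library per group no count model was fitted. Named were all 9 members, their paired counterparts, up to 4 related arms by mean CPM and, for each tested member, the 3 nearest profiles. RefSeq sequences (GRCm38.p6) were matched by name and its coordinates were not used. The members and lists were chosen with earlier results of these data known.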

Additional observations from a re-analysis of the deposited data

How the results depend on the processing

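With 1 library per group no replicate could be left out. No paired analysis was possible because each group has 1 library. Changing the library size shifts every log2 ratio of a mutant by 1 amount; with median-of-ratios scaling this was -0.099 for Q548A, -0.84 for K566A, -0.36 for R792A_C793A, 0.62 for PGKTP_AAAAA and 0.18 for GKT_GKGT, and with the total without miR-292-5p it was -1.11 for K566A. Arm and counterpart ratios do not depend on it. In the order median-of-ratios scaling, TMM scaling and total without miR-292-5p, the summed level had log2 ratios to wild type of 1.76, 1.62 and 1.49 for K566A (2.53 with loci summed), 0.52, 0.59 and 0.68 for Q548A, 0.69, 0.69 and 0.81 for R792A_C793A (1.04 with loci summed), 0.17, 0.20 and 0.29 for GKT_GKGT, and 0.68, 0.48 and 0.31 for PGKTP_AAAAA. Under each of these 3 scalings the arms called lower became 1 for K566A and 0 for GKT_GKGT, and those called higher became 1 for R792A_C793A. For PGKTP_AAAAA the arms called higher became 2 with median-of-ratios or TMM scaling. With a 1.5-fold threshold the arms called higher became 3 for Q548A, 4 for R792A_C793A and 2 for PGKTP_AAAAA, those called lower became 2 for GKT_GKGT, and 1 hairpin was called with its 3p arm down for Q548A. The direct pairs were rescaled as an alternative chosen after seeing the data. GKT_GKGT against PGKTP_AAAAA then had 1 arm higher with median-of-ratios or TMM scaling and 2 lower with median-of-ratios scaling, and K566A against Q548A had 1 arm lower under each scaling and 4 higher with TMM scaling and 3 with the total without miR-292-5p. Over all 337 tested miRNAs, median-of-ratios scaling gave 111 higher and 106 lower for K566A (160 and 66 by total), 20 and 43 for R792A_C793A (53 and 23), 42 and 28 for GKT_GKGT (37 and 40) and 55 and 57 for PGKTP_AAAAA (24 and 113). With a pseudocount of 5 the log2 change in 3p to 5p ratio went from -2.41 to -0.63 for miR-106a in PGKTP_AAAAA, where 1 count of the 3p arm was found. The other 96 of 136 recomputed counts and sums stayed within 1.5 times the count or within the counting interval. Among 344 recomputed values of single arms, hairpins and pairs, 194 stayed within the counting interval and 150 did not. A change of sign in a value past 2-fold was found in 0. For the scalings this is no test, since their shifts were smaller than any such log2 ratio. Depth limits miR-106a-3p and miR-20b-3p, with 1 to 88 counts in an Ago2 library, and each value of the empty control.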
